A study of Homo sapiens with 2 samples.

Results

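The aminoacyl-tRNA synthetases are the enzymes that join each amino acid to its tRNA. They were followed in 2 RNA-seq libraries of LNCaP, a human prostate cancer cell line. The oe library came from cells given CM from oe-YY1 M2 macrophages, and the nc library from cells given CM from nc-YY1 M2 macrophages. Both libraries carry the genotype label WT and the time label Day 0, and both treatment labels contain the word cocultured; the labels do not expand oe, nc or CM. A treatment protocol for adipogenic differentiation with insulin is attached to both, and was not used to define the groups. The series is about YY1 in tumor-associated macrophages and prostate cancer. Family members were chosen by gene symbol alone, and 37 of the 12075 protein-coding genes in the deposited table matched. Of these, 20 encode cytosolic enzymes and 17, whose symbols end in 2, encode mitochondrial enzymes.

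There was 1 library per group, so no value below has a replicate error, a test or a p-value, and each difference describes these 2 libraries. Levels are in FPKM (fragment counts divided by transcript length and library size), and read depth is unknown. A log2 ratio is the difference, oe minus nc, of log2(FPKM + 1). It is given for genes that reached 1 FPKM in either library, a filter that kept all 37 synthetases and 11126 genes in all. Every member exceeded 2 FPKM in each library, so none passed that filter through 1 library alone. Since cells were measured in bulk, fewer cells of a type and less RNA per cell cannot be told apart. The prostate luminal markers chosen for this line were all 13 listed, with summed levels of 649.7 FPKM in the oe library and 1411 FPKM in the nc library. Of 19 markers of macrophages and other leukocytes, 5 were listed. The other 14, among them PTPRC, CD14, CD163 and CSF1R, were absent from the 12075 listed genes. Every listed gene reached 0.5 FPKM in at least 1 library. The listed leukocyte markers summed to 127 and 90.6 FPKM in the oe and nc libraries, nearly all of it from LCP1, an actin-bundling protein that had 114 and 89.9 FPKM in the oe and nc libraries. The rest of that list summed to 13.0 FPKM in the oe library and 0.719 FPKM in the nc library, and its part in the synthetase values was not tested.

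Each synthetase recognises 1 amino acid and its tRNAs, and most amino acids have 2 nuclear genes, 1 for the enzyme of the cytosol and 1 for the enzyme of the mitochondrial matrix. The cytosolic enzymes feed the translation of nuclear mRNAs, while the mitochondrial ones serve only the few proteins encoded by mitochondrial DNA. GARS and KARS supply both compartments from 1 gene, and are counted here with the cytosolic enzymes. EPRS is a fusion of the glutamate and proline enzymes, and FARSA and FARSB are the alpha and beta subunits of the cytosolic phenylalanine enzyme. Many cytosolic synthetase genes are known targets of ATF4, the transcription factor of the amino acid response, and WARS is known to be induced by interferon-gamma.

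The cytosolic enzymes were mostly higher in the oe library and the mitochondrial enzymes mostly lower, by small amounts. Of the 20 cytosolic enzymes, 16 had a log2 ratio above 0, against 49.2% of all genes. Of the 17 mitochondrial enzymes, 13 had a log2 ratio below 0, against 50.8% of all genes. The median log2 ratio was 0.20 over the cytosolic enzymes and -0.18 over the mitochondrial enzymes, beside -0.01 over all 11126 genes and 0.04 over the whole family. The difference between the compartment medians was 0.38. It lay between 0.33 and 0.41 under every pseudocount, scaling, filter and choice of members tried. Some of these could hardly move it. Scaling a library nearly cancels in a difference between compartments, and the settings with no filter or 1 FPKM in both libraries kept every member. No synthetase differed by 2-fold on the FPKM + 1 scale, a size that 6.46% of all genes exceeded in the higher direction and 5.83% in the lower. At 1.5-fold, WARS was the 1 member higher (15.3% of all genes) and FARSB and CARS2 were the 2 members lower (15.2% of all genes). Log2 ratios of the family ran from -0.82 to 0.59.

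**Figure D1:**
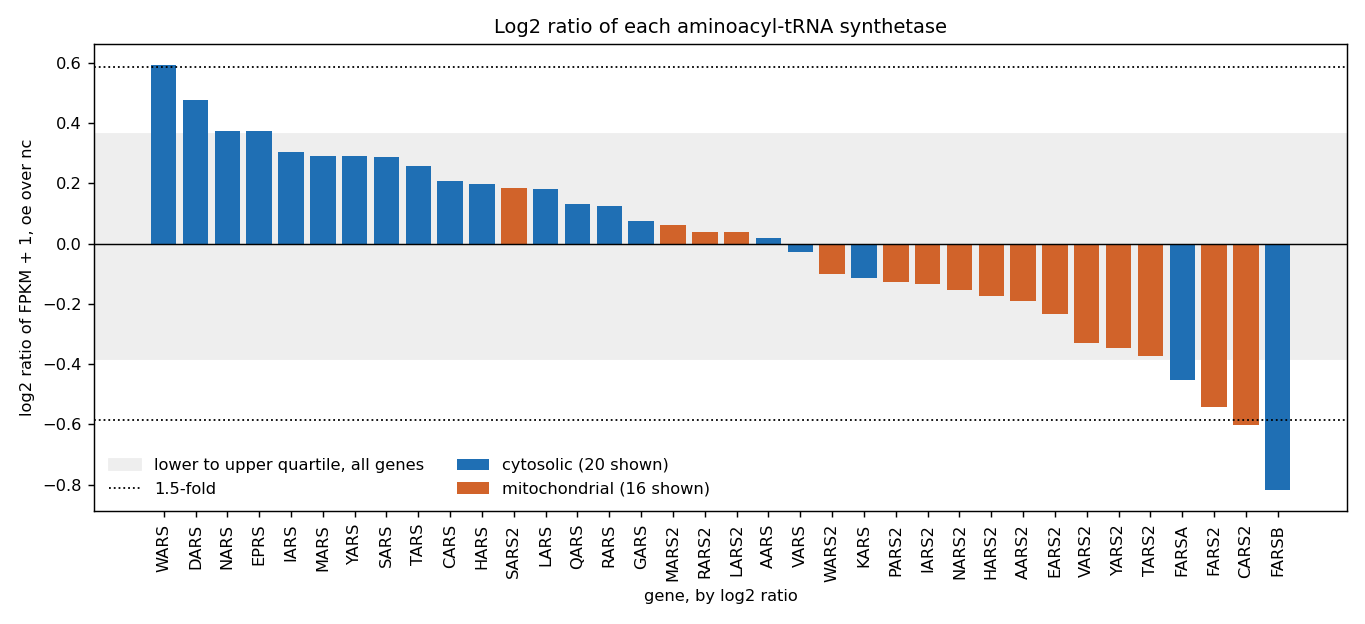
Log2 ratio of FPKM + 1 (oe over nc, vertical axis) for 36 of the 37 synthetases in order, with cytosolic enzymes in blue and mitochondrial enzymes in orange; the grey band runs from the lower to the upper quartile of all 11126 genes and dotted lines mark 1.5-fold. Cytosolic enzymes fill 11 of the 12 highest places and mitochondrial enzymes 10 of the 12 lowest, with FARSB at the bottom at -0.82.

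Expression range alone gives a different background for the 2 compartments. Cytosolic enzymes averaged between 12.3 and 114 FPKM over both libraries, and of the 3011 genes in that range 38.1% were above 0, with a median log2 ratio of -0.18. Mitochondrial enzymes averaged between 2.78 and 38.5 FPKM, and of the 7585 genes in that range 50.9% were below 0, with a median of -0.01. The cytosolic set was thus on the opposite side of 0 from genes of like abundance. Summed over the 20 cytosolic enzymes, FPKM came to 989 in the oe library and 900.4 in the nc library, or 0.498% and 0.416% of the summed FPKM of each. Summed over the 17 mitochondrial enzymes, it came to 164 and 190.1 FPKM in the oe and nc libraries, or 0.0827% and 0.0879%. Scaling the libraries to the same sum of FPKM moved the median of all genes to 0.09. Under that scaling 18 cytosolic enzymes were above 0 and 12 mitochondrial enzymes below it, and counted from the median of all genes the numbers were again 16 and 13.

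The 2 most abundant synthetases differed little between the libraries. AARS, the alanine enzyme, had 115 and 114 FPKM in the oe and nc libraries, a log2 ratio of 0.02. GARS, the glycine enzyme of both compartments, had 113 and 108 FPKM (0.07). NARS, the asparagine enzyme, followed in level in both libraries, with 102.1 FPKM in the oe library and 78.5 FPKM in the nc library, and a log2 ratio of 0.37. In the order of levels over the 37 genes, 7 genes moved by more than 3 places between the libraries. FARSB moved farthest, by 7 places, to 15th in the oe library against 8th in the nc library.

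**Figure D2:**
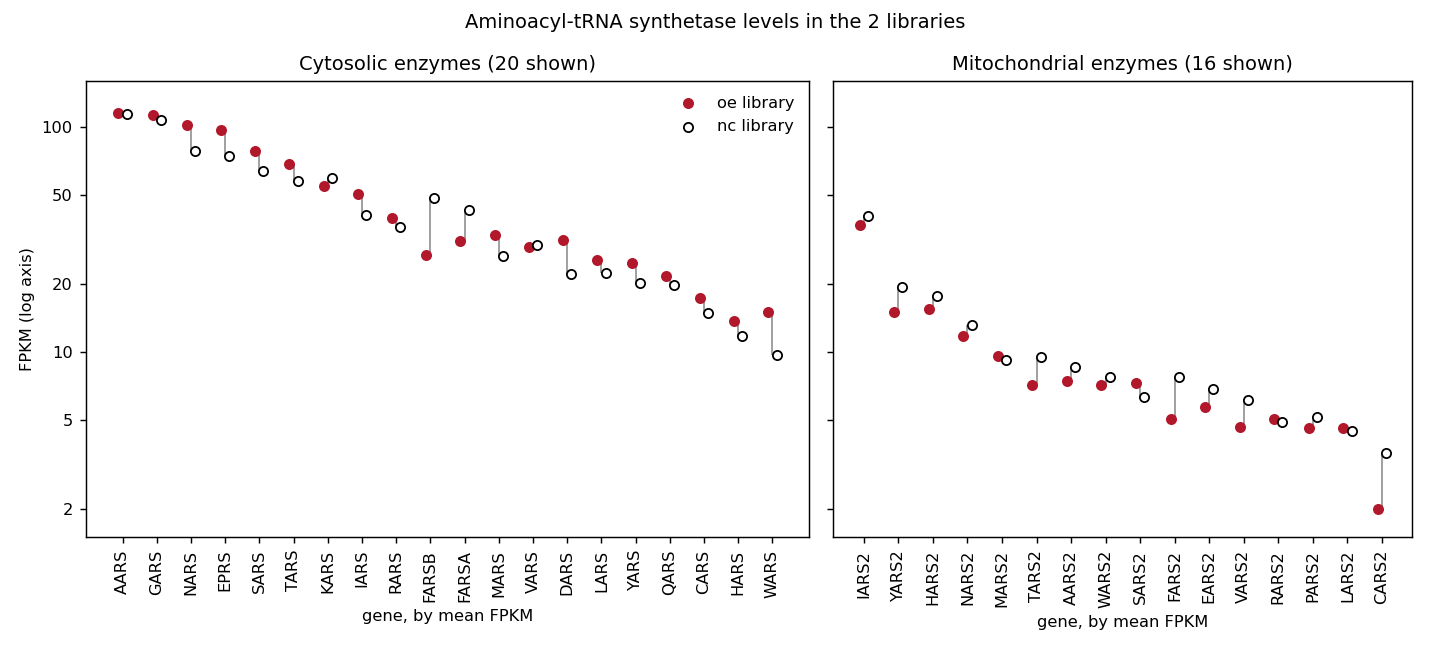
FPKM on a log axis for 36 of the 37 synthetases, cytosolic on the left and mitochondrial on the right, ordered by mean level, with the oe library as filled points and the nc library as open points. Filled points lie above open ones for most cytosolic genes and below them for most mitochondrial genes, and the gaps are widest for FARSB, CARS2, WARS and FARS2.

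The enzymes at the low end of the cytosolic range were WARS, HARS and CARS. WARS, the tryptophan enzyme (ENSG00000140105.17_3, chromosome 14, 100800125 to 100843142 as deposited), had 15.04 FPKM in the oe library and 9.65 FPKM in the nc library. Its log2 ratio of 0.59, a fold of 1.51 on the FPKM + 1 scale and 1.56 as a plain ratio of FPKM, was the highest of the family and ranked 1667 among the 11126 genes. DARS, the aspartate enzyme, came next and was short of 1.5-fold, at 31.4 FPKM in the oe library against 22.3 FPKM in the nc library (fold 1.39 on the FPKM + 1 scale). With the libraries set to the same median, WARS fell short of 1.5-fold as well, at a log2 ratio of 0.55. HARS, the histidine enzyme, had 13.7 FPKM in the oe library and 11.8 FPKM in the nc library, and CARS, the cysteine enzyme, had 17.4 FPKM in the oe library and 14.9 FPKM in the nc library. All 3 were higher in the oe library.

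Beside the other interferon-gamma induced genes, WARS was at the low end. Of 18 such genes in the table, 9 reached 1 FPKM in both libraries, and of these 7 exceeded 2-fold in the higher direction and 0 in the lower. Over all 11126 genes, which reached 1 FPKM in either library, the shares were 6.46% and 5.83%. The median log2 ratio of the 9 was 1.78, and they ran from 0.78, for the proteasome activator PSME2, to 3.72, all above the 0.59 of WARS. A further 8 were under 1 FPKM in the nc library and could be kept only by being higher in the oe library, so their levels are given with no count or median. Among those 8, HLA-DRA, an MHC class II chain, had 700.01 FPKM in the oe library and 0.962 FPKM in the nc library, and UBD, a ubiquitin-like modifier, had 266 FPKM in the oe library and 0.0724 FPKM in the nc library. CD74, the class II invariant chain, had 251 FPKM in the oe library and 0.0923 FPKM in the nc library. The adhesion molecule ICAM1 had 57.6 FPKM in the oe library and 0.889 FPKM in the nc library. WARS2, the mitochondrial tryptophan enzyme, had 7.14 FPKM in the oe library and 7.72 FPKM in the nc library (log2 ratio -0.10).

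The upstream sequences of the tryptophan pair are shown because WARS is the member tied to interferon. RefSeq promoters (build GRCh38.p14, a different build from the deposited coordinates) were searched on both strands for TTCNNNGAA, the core of a gamma-activated site, and for the core of an interferon-stimulated response element. The search window ran from 250 bases before to 50 after the annotated start. Of 27305 promoters, 7.88% held the first and 3.65% the second. In the WARS window neither was found, which says only that these letters are absent there. The WARS2 window held 1 match to TTCNNNGAA, beginning 191 bases before the start and printed in capitals. The 250 bases before the start are given for WARS (chr14:100376328-100376577, minus strand) and for WARS2 (chr1:119140673-119140922, minus strand).
WARS: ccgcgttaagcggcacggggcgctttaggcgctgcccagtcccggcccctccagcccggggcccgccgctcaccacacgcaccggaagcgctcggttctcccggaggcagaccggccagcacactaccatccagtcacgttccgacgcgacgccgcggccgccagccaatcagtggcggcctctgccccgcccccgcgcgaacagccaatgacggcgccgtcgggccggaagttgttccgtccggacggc
WARS2: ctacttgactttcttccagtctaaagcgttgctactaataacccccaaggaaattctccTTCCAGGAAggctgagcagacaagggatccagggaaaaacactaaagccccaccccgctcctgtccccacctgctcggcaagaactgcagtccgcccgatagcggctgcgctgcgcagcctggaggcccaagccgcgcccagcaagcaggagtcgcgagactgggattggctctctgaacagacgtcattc
Over the members with a promoter in the table, TTCNNNGAA was found in 2 of 16 cytosolic and 2 of 14 mitochondrial windows, and the response element core in 0 of 16 and 1 of 14.

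The cytosolic enzymes known as ATF4 targets were mostly higher in the oe library. Of 13 such enzymes, 12 had a log2 ratio above 0, and the median was 0.29. Above 0 were 49.2% of all genes and 38.1% of genes averaging 12.3 to 114 FPKM. Of the other 7, DARS, FARSA, FARSB, HARS, KARS, QARS and RARS, 4 were above 0 and the median was 0.12. Those below 0 were KARS and the subunits FARSA and FARSB of 1 enzyme. EPRS had 96.9 FPKM in the oe library and 74.6 FPKM in the nc library, a log2 ratio of 0.37. IARS, the isoleucine enzyme, had 50.2 FPKM in the oe library and 40.5 FPKM in the nc library. SARS, the serine enzyme, had 78.3 FPKM in the oe library and 63.9 FPKM in the nc library. YARS, the tyrosine enzyme, TARS, the threonine enzyme, and MARS, the methionine enzyme, had log2 ratios of 0.29, 0.26 and 0.29. VARS, the valine enzyme, was the 1 ATF4 target below 0, with 29.4 FPKM in the oe library and 29.95 FPKM in the nc library. Whether the 2 sets differ was not tested.

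ATF4 RNA was nearly level, and the amino acid response outside the family had genes on both sides of 0. ATF4 protein was not measured. ATF4 had 294 FPKM in the oe library and 296 FPKM in the nc library. Of 29 listed genes of that response, 18 were above 0 and the median log2 ratio was 0.12. Over all genes 49.2% were above 0, with a median of -0.01. Over genes averaging 12.3 to 114 FPKM, 38.1% were above 0, with a median of -0.18. Whether the list differs from these was not tested. At 2-fold, 3 were higher and 0 lower, against 6.46% and 5.83% of all genes. The 3 higher were ATF3, SLC7A11 and SLC38A2. ATF3, a stress-induced transcription factor, had 31.5 FPKM in the oe library and 3.0 FPKM in the nc library. SLC7A11, a cystine transporter, had 42.4 FPKM in the oe library and 11.6 FPKM in the nc library. SLC38A2, a transporter of glutamine and alanine, had 69.5 FPKM in the oe library and 23.9 FPKM in the nc library. Genes of amino acid synthesis on the list were mixed. ASNS, asparagine synthetase, had 77.7 FPKM in the oe library and 68.5 FPKM in the nc library. PHGDH, the entry enzyme of serine synthesis, was lower, at 24.4 FPKM in the oe library and 40.3 FPKM in the nc library, and so was PYCR1, an enzyme of proline synthesis, at 62.3 FPKM in the oe library and 101.6 FPKM in the nc library.

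The promoters of several cytosolic synthetases share a short element. The letters TGATGNAA, the core of the composite element bound by ATF4 with C/EBP proteins, were found in 6 of 16 cytosolic windows and 1 of 14 mitochondrial windows, against 3.67% of all 27305 promoters. Each window is 300 bases long and both strands were searched; no match overlapped one of another motif. All 6 cytosolic matches read TGATGCAA on 1 of the 2 strands. The match with 10 bases on either side is printed for each gene, with the core in capitals, in the direction of the gene, so that a core on the opposite strand reads TTGCATCA.
NARS: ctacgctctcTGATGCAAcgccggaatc
IARS: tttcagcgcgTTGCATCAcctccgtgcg
MARS: ccggttccggTTGCATCAgcgagggatt
TARS: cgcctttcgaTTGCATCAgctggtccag
CARS: ggggcggcggTTGCATCAgattctagga
AARS: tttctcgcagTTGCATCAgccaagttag
YARS2: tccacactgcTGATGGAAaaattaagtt
In build GRCh38.p14 the cytosolic stretches are NARS at chr18:57621805-57621832 (minus strand), IARS at chr9:92293693-92293720 (minus strand), MARS at chr12:57488054-57488081 (plus strand), TARS at chr5:33440957-33440984 (plus strand), CARS at chr11:3057408-3057435 (minus strand), AARS at chr16:70289676-70289703 (minus strand). The YARS2 stretch lies at chr12:32756077-32756104 (minus strand) and has another base at the N of the searched letters. In 5 of the 6 cytosolic genes the match began within 25 bases of the annotated start, and in AARS it began 187 bases before it. Log2 ratios of those 6 genes ran from 0.02 for AARS to 0.37 for NARS, so the match was found both in the steadiest member and in 1 of the highest. DARS, YARS, LARS, VARS, AARS2 and VARS2 were among the 7 members not matched in the promoter table. A match describes letters only and is not a measured binding site. CACGTG, the E-box, was found in 1 of 16 cytosolic and 3 of 14 mitochondrial windows, against 7.43% of all promoters. Base composition was alike, with a median GC content of 61.8% in cytosolic and 62.3% in mitochondrial windows.

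The cytosolic phenylalanine enzyme went the other way from the rest of its compartment. FARSB, its beta subunit (ENSG00000116120.9_2, chromosome 2, 223435255 to 223521056 as deposited), had 26.9 FPKM in the oe library and 48.1 FPKM in the nc library, a log2 ratio of -0.82 and the lowest of the family. FARSA, the alpha subunit, had 31.1 FPKM in the oe library and 42.9 FPKM in the nc library (-0.45). FARS2, the mitochondrial phenylalanine enzyme, had 5.01 FPKM in the oe library and 7.75 FPKM in the nc library (-0.54). All 3 genes of phenylalanine charging were lower in the oe library, and they took 3 of the 4 lowest places. Without these genes, 16 of 18 cytosolic enzymes were above 0 and the cytosolic median was 0.23. The other cytosolic enzymes below 0 were VARS (-0.03) and KARS, the lysine enzyme of both compartments, with 54.7 FPKM in the oe library and 59.3 FPKM in the nc library (-0.11).

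Enzymes of the multisynthetase complex and its scaffolds differed in direction. This complex holds EPRS, LARS, IARS, MARS, QARS, KARS, RARS and DARS on the scaffold proteins AIMP1, AIMP2 and EEF1E1. Of the 8 enzymes, 7 were above 0, with a median log2 ratio of 0.24, while the other 12 cytosolic enzymes had a median of 0.20 with 9 above 0. The shares above 0 were 49.2% of all genes and 38.1% of genes averaging 12.3 to 114 FPKM. All 3 scaffolds were lower, as were 61.9% of genes averaging 12.3 to 114 FPKM. The median log2 ratio of those genes was -0.18 and their lower quartile -0.52. AIMP2 had 54.3 FPKM in the oe library and 65.7 FPKM in the nc library, and AIMP1 had 23.6 FPKM in the oe library and 30.5 FPKM in the nc library. EEF1E1 had 22.6 FPKM in the oe library and 30.2 FPKM in the nc library. Log2 ratios of the scaffolds ran from -0.40 to -0.27, below those of all 8 enzymes. Division by structural class, which groups the enzymes by the fold of their catalytic domain, gave medians of 0.21 over 9 cytosolic class I enzymes and 0.14 over 10 of class II, and of -0.14 over 9 mitochondrial class I enzymes and -0.18 over 8 of class II. Compartment thus separated the medians more than class did.

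The mitochondrial enzymes were lower as a set, with 4 exceptions. IARS2, the isoleucine enzyme and by far the most abundant of them, had 36.7 FPKM in the oe library and 40.3 FPKM in the nc library. YARS2, the tyrosine enzyme, had 15.07 FPKM in the oe library and 19.4 FPKM in the nc library. CARS2, the cysteine enzyme (ENSG00000134905.16_3, chromosome 13, 111293759 to 111365950 as deposited), was the least abundant of the family, at 2.01 FPKM in the oe library and 3.56 FPKM in the nc library. Its fold of 0.659 on the FPKM + 1 scale was just past 1.5-fold lower, while the 0.687 of FARS2 was just short. A pseudocount of 0.1 put FARS2 past that line too, and scaling to the same sum or the same 75th percentile took CARS2 back inside it. LARS2, the leucine enzyme, and PARS2, the proline enzyme, were the next lowest by mean level. LARS2 had 4.59 FPKM in the oe library and 4.44 FPKM in the nc library, and PARS2 had 4.59 FPKM in the oe library and 5.11 FPKM in the nc library. SARS2, the serine enzyme, was the highest of the 4 mitochondrial enzymes above 0, at 7.26 FPKM in the oe library and 6.27 FPKM in the nc library (log2 ratio 0.18). MARS2, RARS2 and LARS2 were the others, with log2 ratios from 0.04 to 0.06.

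Set side by side for the same amino acid, the cytosolic enzyme had the higher log2 ratio in 17 of 18 pairs, which cover 17 amino acids. EPRS enters as the partner of both EARS2 and PARS2, and FARS2 as that of both FARSA and FARSB, so these pairs share genes. The median difference was 0.41. In 11 pairs the cytosolic enzyme was above 0 and the mitochondrial enzyme below it. The gap was 0.81 for cysteine, 0.69 for tryptophan and 0.09 for arginine. The exception was FARSB, which lay 0.28 below FARS2. All 18 comparisons rest on the same 2 libraries and are not replicates of one another.

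**Figure D3:**
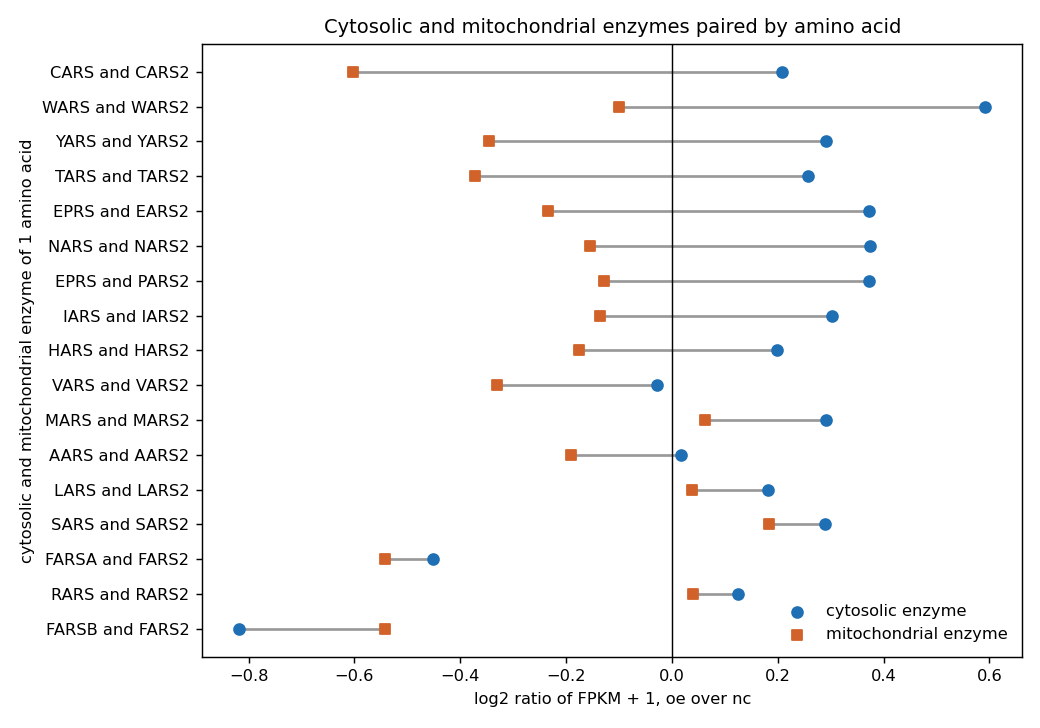
Log2 ratio of FPKM + 1 (oe over nc, horizontal axis) of the cytosolic enzyme (blue circle) and the mitochondrial enzyme (orange square) in 17 of the 18 pairs, ordered by their difference. The circle lies to the right of the square in 16 of 17 rows, and in the bottom row FARSB lies to the left of FARS2.

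Levels within a pair also differed by compartment. In 17 of 18 pairs the cytosolic gene had the higher FPKM in both libraries, with a median ratio of 6.26 in the oe library and 5.29 in the nc library. The widest was EPRS over PARS2, at 21.1 in the oe library and 14.6 in the nc library. The isoleucine pair was apart in the oe library, where IARS had 50.2 FPKM and IARS2 had 36.7 FPKM, and nearly level in the nc library, where IARS had 40.5 FPKM and IARS2 had 40.3 FPKM. The histidine pair was the 1 in which the mitochondrial gene was higher, with HARS at 13.7 and HARS2 at 15.6 FPKM in the oe library, and HARS at 11.8 and HARS2 at 17.7 FPKM in the nc library.

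HARS and HARS2 are neighbours that are read in opposite directions from a common stretch of chromosome 5. Their RefSeq starts lie 84 bases apart in build GRCh38.p14, and the bases between them (chr5:140691371-140691454, plus strand, HARS to the left) are shown because 1 stretch precedes both genes while their log2 ratios had opposite signs, at 0.20 and -0.18.
HARS/HARS2: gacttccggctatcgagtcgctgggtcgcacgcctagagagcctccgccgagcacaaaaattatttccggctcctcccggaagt
The deposited coordinates of these genes overlap by 599 bases on opposite strands. A stranded kit is among those the labels name, but no source used here says whether strand entered the quantification, so reads in that overlap may be divided between them. HARS also overlaps DND1 on its own strand, HARS2 overlaps ZMAT2 and VARS2 overlaps GTF2H4, and their values are uncertain to that extent. Without these members the compartment difference was 0.36.

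In other lists of tRNA biology and translation, most genes were below 0. So were 50.8% of all genes, 50.9% of genes averaging 2.78 to 38.5 FPKM and 61.9% of genes averaging 12.3 to 114 FPKM. The lists were not matched in level to either range. Whether the lists differ from these shares was not tested. Of 22 measured genes of tRNA maturation and export, 17 were below 0, with a median log2 ratio of -0.29. TSEN15, a subunit of the tRNA splicing endonuclease, was the 1 past 2-fold, at 18.8 FPKM in the oe library and 7.42 FPKM in the nc library. Of 14 genes of mitochondrial tRNA modification and processing, 9 were below 0 (median -0.30), among them HSD17B10, a subunit of mitochondrial RNase P, at 87.8 FPKM in the oe library and 121 FPKM in the nc library. Of 14 mitochondrial translation factors and amidation enzymes, 9 were below 0 (median -0.14), with the elongation factor TUFM at 105.5 FPKM in the oe library and 140.1 FPKM in the nc library. No gene of these 2 mitochondrial lists differed by 2-fold. QRSL1, GATB and GATC, which turn the glutamate that EARS2 loads on glutamine tRNA into glutamine, had log2 ratios of -0.17, -0.07 and -0.29, and EARS2 itself -0.24. Of 8 cytosolic elongation factors, 6 were below 0 (median -0.11), and EEF2, the translocase, had 746 FPKM in the oe library and 701 FPKM in the nc library.

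**Figure D4:**
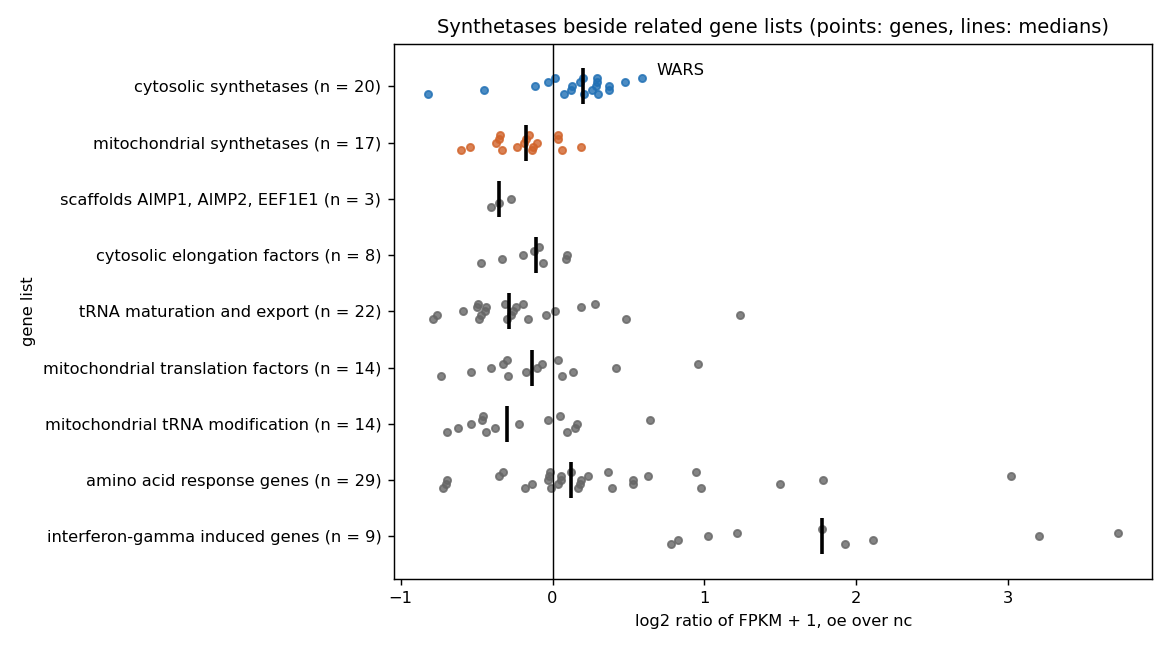
Log2 ratio of FPKM + 1 (oe over nc, horizontal axis) of each gene that reached 1 FPKM in both libraries (points) in the 2 synthetase sets and 7 related lists, with list medians as vertical lines. The cytosolic synthetases centre at 0.20 and the mitochondrial ones at -0.18, while the 9 interferon-gamma induced genes drawn centre at 1.78 and all lie to the right of WARS.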

How the data were processed

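RNA-seq expression of 1 oe and 1 nc library of LNCaP cells was deposited as FPKM per the file headers, and StringTie 2.1.0 is the tool named in the submitters' processing notes. Those notes name the mouse build mm10, but identifiers and coordinates are human; no source used here names the aligner. Build GRCh37 is an inference from the suffix carried by 11946 of the 12075 identifiers. The deposited tables of changed genes give the authors' log2 fold changes and linear fold changes of FPKM + 1, oe over nc, and deposited p-values and q-values that are 1 in every row and were not used. In the authors' deposited tables WARS has a fold of 1.51, FARSB 0.567 and CARS2 0.659.

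Log2 ratios used a pseudocount of 1 and a filter of 1 FPKM in the higher library. With 1 library per group no test was run. Members were matched by symbol; promoters came from RefSeq and 30 of 37 members matched. Calculations used Python 3.11.15, numpy 2.4.6 and pandas 2.3.3, and were checked on simulated data. The read depth is unknown, since FPKM holds no counts, so no interval can be given.

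The members and lists were chosen with earlier results of these data known. Members described singly were those past 1.5-fold, WARS and WARS2, the 3 most and 3 least abundant of each compartment, and partners of members past 1.5-fold; outside the family, at most 4 genes per list past 2-fold, or the most abundant gene. Other named genes were chosen after their values were seen. A member and a listed gene that these rules would name are in the counts, medians and sums but are not reported singly here. Other pseudocounts, scalings, filters and choices of members were tried.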

Additional observations from a re-analysis of the deposited data

How the results depend on the processing

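Of 119 values recomputed under alternatives, 102 stayed within 0.1 on the log2 scale or within 1.5 times of a count. Part of these could hardly change, so the tally is not a measure of stability. Scaling nearly cancels in the compartment difference and within pairs, and the settings with no filter or 1 FPKM in both libraries kept every member. Scaling the libraries to the same sum of FPKM, with or without mitochondrially encoded genes, gave log2 ratios of 0.708 and 0.711 for WARS, and medians of 0.140 and 0.143 for the family, 0.319 and 0.322 for cytosolic and -0.0593 and -0.0557 for mitochondrial enzymes, while the median of all genes moved to 0.0945 and 0.0975. The mean of all members was -0.0154, opposite in sign to their median of 0.0383. The number at least 1.5-fold higher was 2 under both sum scalings, with DARS added to WARS, and 0 with the same median. The number at least 1.5-fold lower was 1 under both sum scalings, the same 75th percentile and the 5 FPKM filter, and 1 without FARSA, FARSB and FARS2, an alternative chosen after seeing the data. Counts at 2-fold were 0 under every alternative, and the cytosolic enzyme led in 15 to 17 pairs, of 16 to 18 that could be formed. No paired analysis was possible because each group has 1 library. Depth is unknown and no replicate exists, so differences of the size seen here, mostly under 1.5-fold, cannot be set against an error.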

Other observations

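In the deposited coordinates 11 of the 37 synthetases overlap another listed gene on the opposite strand. MARS overlaps DDIT3, a stress-induced transcription factor, by 982 bases, and DDIT3 had 51.1 FPKM in the oe library and 38.7 FPKM in the nc library (log2 ratio 0.39, beside 0.29 for MARS). KARS overlaps TERF2IP, a telomere protein, by 858 bases, and TERF2IP had 19.9 FPKM in the oe library and 43.1 FPKM in the nc library (-1.08, beside -0.11 for KARS). SARS2 overlaps MRPS12, a mitochondrial ribosomal protein gene, by 349 bases, and MRPS12 had 24.9 FPKM in the oe library and 37.97 FPKM in the nc library (-0.59, beside 0.18 for SARS2). CARS2 overlaps ING1, a chromatin-binding tumor suppressor, by 868 bases, and ING1 had 1.36 FPKM in the oe library and 2.12 FPKM in the nc library (-0.40, beside -0.60 for CARS2). The correlation of log2 ratio with log2 mean FPKM + 1 was 0.36 (Pearson r) over all 37 members, whose compartments differ in both measures. Within compartments it was -0.13 across the 20 cytosolic enzymes and 0.05 across the 17 mitochondrial enzymes, a description over genes that share the same 2 libraries. With 1 library per group, no sample could be compared with others of its group.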
